A study of Mus musculus with 4 samples.

Results

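Read starts in repeats that were present at the 2-cell stage and below threshold at the 8-cell stage make up 1514 of the 2798 clusters of read starts on at the 2-cell stage, and of 259863 clusters in all. The clusters were chosen by their read numbers in the oocyte, the 2-cell and the 8-cell runs. Over all runs, starts up to 20 bp from each other on a strand were joined into a cluster, and a stage counted as on where at least 2 of its runs had 2 or more reads in the cluster. The 1514 clusters were on at the 2-cell stage and on neither in the oocyte nor at the 8-cell stage. Chromosomes X, Y and M and a 10 kb stretch of chromosome 17 were left out. Of the other clusters on at the 2-cell stage, 1141 were also on at the 8-cell stage and not in the oocyte (below, the kept clusters), and 143 were on in the oocyte.

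The material was mouse, from F1 crosses of C57BL/6J with CBA/H: fully grown oocytes, 2-cell embryos at 48 h, 8-cell embryos at 68 h and blastocysts at 92 h. The labels name no treatment, genotype or number of pooled embryos. Capped 5′ ends were sequenced from total RNA by nanoCAGE, a form of cap analysis for small amounts of RNA. Each stage is 1 sample with 2 (2-cell) or 3 (other stages) runs, and the labels do not say whether the runs are separate pools of embryos or repeat sequencing of 1 library. Each stage was counted as 1 sample here, so no test between stages was made, and all statements below are about these runs. The files hold lines of placed 25-base reads, with no gene or repeat name, so the labelled stages could not be checked against marker genes. Each line is counted as 1 read below, though 1.64% to 4.34% of the lines of a run repeat an earlier line exactly.

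In the mouse the embryonic genome is activated mainly at the 2-cell stage, after a period in which the embryo lives on RNA stored in the oocyte. Long terminal repeats (LTRs) of endogenous retroviruses carry promoters, and those of MERVL are known for a burst of transcription at the 2-cell stage that ends in later cleavage stages. A CAGE read marks the base at which a capped RNA begins, so that a narrow cluster of starts is read as 1 promoter. The positions given here are in mm9. No mm9 sequence or annotation was used, so the clusters are given without sequence, gene or repeat family.

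Depth differed widely between runs and bears on what "not on" means. The 2-cell runs held 236980 and 211961 reads, 8-cell runs 1.1, 1.2 and 2 held 51434, 82454 and 1155992, the oocyte runs 272199 to 1375332, and the blastocyst runs 33473 to 95702. A count of 0 allows a share of up to 0.00583% of reads in 8-cell run 1.1, 0.00364% in run 1.2 and 0.000260% in run 2 (3 reads of the total). These limits, and the exact (Clopper-Pearson) 95% intervals below, describe counting error alone, because copies made by amplification were not told apart by molecular identifiers. The read names of 2-cell run 2 and 8-cell run 2 shared an identifier. So did those of 8-cell run 1.2 and oocyte run 1.2, and those of oocyte runs 1.1 and 2 and blastocyst run 1.2. Whether a shared identifier means the same sequencing run was not tested.

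The 1514 clusters were mostly of low abundance. Together they held 5.74% of reads in 2-cell run 1 (interval 5.64% to 5.83%) and 4.58% in run 2 (4.49% to 4.67%), whereas the 1141 kept clusters held 25.3% and 23.6%. The median cluster had 9 reads over both 2-cell runs (quartiles 6 and 16, highest 527) and a mean share of 0.00205%. For the kept clusters the median was 28 reads and 0.00616%. Fewer than 20 reads were found in 1236 of the 1514 clusters (81.6%) and in 35.8% of the kept clusters. The 12 most used clusters made up 11.8% of the summed mean 2-cell share, and the first 100 made up 32.8%. As a description of the threshold, 748 of the 1514 had exactly 2 reads in 1 of the 2-cell runs or in both, and 1820 further clusters that were on in neither of the other stages fell 1 read short in 1 2-cell run.

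**Figure D1:**
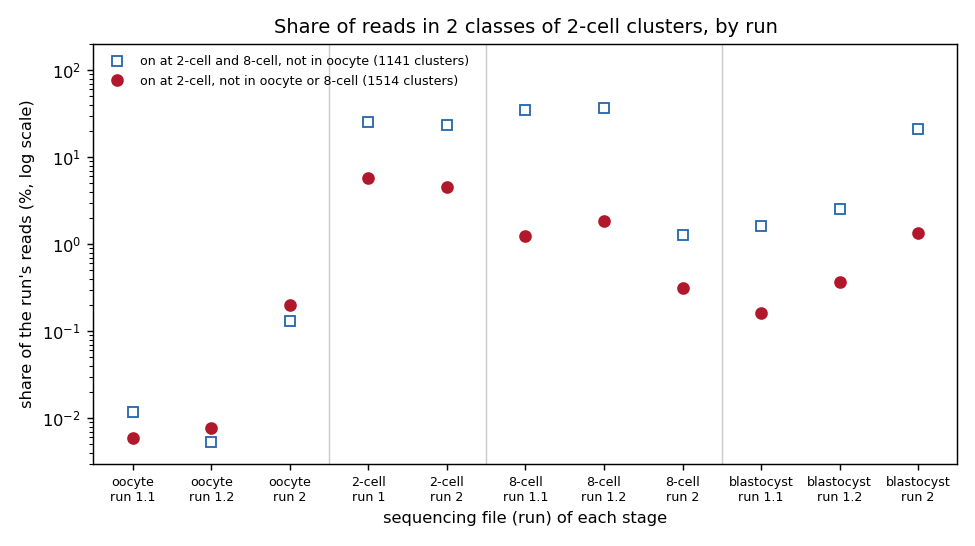
Share of the reads of each run (percent, log scale) in the 1514 clusters on at the 2-cell stage and not in the oocyte or at the 8-cell stage (filled circles) and in the 1141 kept clusters (open squares), for the 11 runs. The 1514 clusters are at 5.74% and 4.58% in the 2-cell runs and between 0.312% and 1.83% in the 8-cell runs, and in 8-cell run 2 the kept clusters are low as well, at 1.26%.

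The cluster with the highest 2-cell share was chr1:31151979-31151985 on the plus strand. It had 362 and 165 reads in 2-cell runs 1 and 2, which are 0.153% and 0.0778% of those runs. It had 0, 0 and 47 reads in 8-cell runs 1.1, 1.2 and 2, and none in the 3 oocyte and 3 blastocyst runs. Next came chr11:75558598-75558604 on the plus strand, with 358 and 70 reads at the 2-cell stage and 0, 0 and 46 at the 8-cell stage. Oocyte and blastocyst runs had none there. Both were high in both 2-cell runs, without a read in the 2 shallower 8-cell runs, and present in 8-cell run 2 at 0.00407% and 0.00398% of reads.

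A cluster only 2 bp wide, chr3:19664889-19664890 on the plus strand, had 50 and 266 reads at the 2-cell stage, then 0, 0 and 113 at the 8-cell stage. It also had 1 read each in oocyte runs 1.2 and 2 and in blastocyst run 1.1. Its 8-cell run 2 share, 0.00978%, was 0.133 of its mean 2-cell share, the highest such ratio among the 12. The cluster chr7:105849564-105849567 on the plus strand differed from these in the 8-cell runs, with 1, 9 and 1 reads after 171 and 24 at the 2-cell stage, and it had 2 reads in blastocyst run 2.

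The other 8 of the first 12 lay on chromosomes 1, 2 (3 clusters), 3, 4 and 19 (2 clusters), were between 2 and 6 bp wide except for chr19:4835747-4835753 (7 bp), and had between 4 and 224 reads in a 2-cell run. In 8-cell run 2 they had between 0 and 35 reads, and never over 3 in the other 8-cell runs. A read in oocyte run 1.1 was found for 2 of these 8, and in the blastocyst runs 2 of the 8 had any, 1 and 2 reads. None of the 12 was on in the blastocyst.

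**Figure D2:**
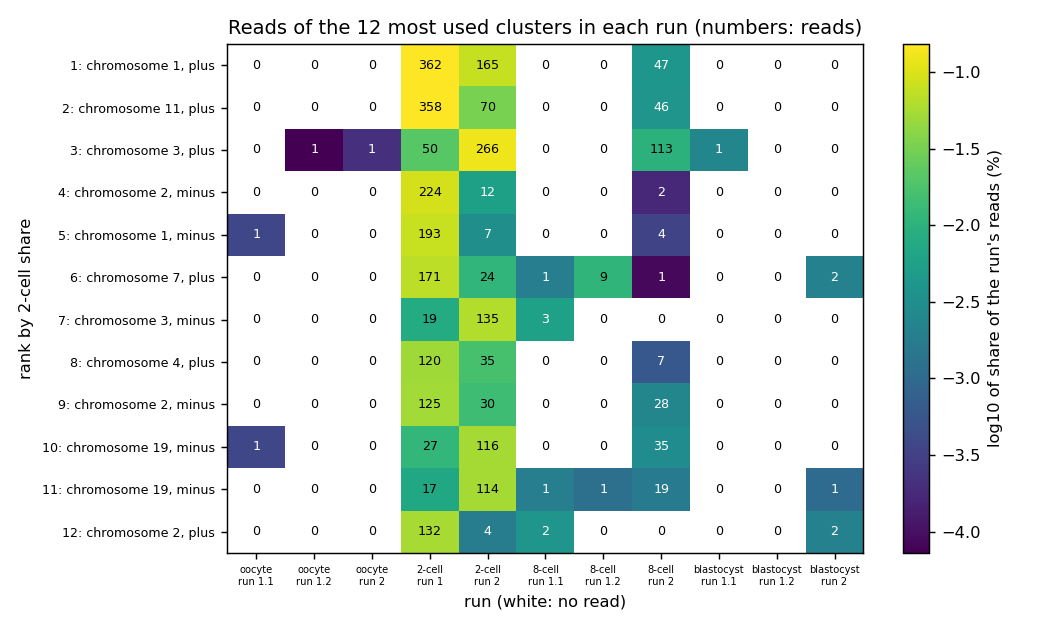
Reads of the 12 clusters with the highest mean 2-cell share (rows, by rank, with chromosome and strand) in each of the 11 runs (columns). Numbers are reads, colour is the log10 of the share of the run's reads in percent, and white is no read. The 2-cell columns hold 4 to 362 reads, and the other reads of these clusters are mostly in 8-cell run 2.

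The read numbers of a cluster differed between the 2-cell runs. The share of a cluster differed between the runs by a median of 1.92-fold over the 1514 clusters, and 781 (51.6%) were within 2-fold. Among the 278 clusters with at least 20 reads the median was 3.58-fold, 70 (25.2%) were within 2-fold and 107 (38.5%) differed over 5-fold. For the 733 kept clusters with at least 20 reads the median was 2.62-fold, and 24.6% differed over 5-fold. Examples among the first 12 are chr2:40672210-40672215 on the plus strand, 29.5-fold by share, and chr1:192997273-192997278 on the minus strand, 24.7-fold with 193 and 7 reads. The larger share was in run 1 for 790 of the 1514 clusters (52.2%), for 175 of the 278 with at least 20 reads (62.9%) and for 65.1% of the 733 kept clusters.

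**Figure D3:**
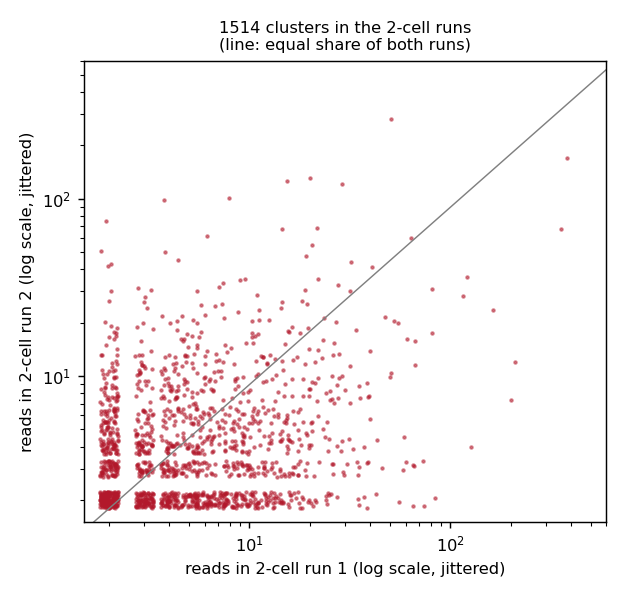
Reads of each of the 1514 clusters in 2-cell run 1 and run 2 (both axes logarithmic, points jittered), with a line at an equal share of both runs. Most points sit at few reads, and clusters with many reads in 1 run are often low in the other.

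Within a cluster, the most used start base was the same in both 2-cell runs for 679 of the 1514 clusters (44.8%) and within 2 bp for 1269 (83.8%). In the kept clusters it was the same for 53.6% and within 2 bp for 85.5%. In clusters as narrow as these the second value is in part set by the width. The rule did not use the base within a cluster. Of the 1514 clusters, 1088 had a read in some 8-cell run, and there the most used 8-cell base was the 2-cell base in 552 (50.7%) and within 2 bp of it in 942 (86.6%). In 8-cell run 2 alone this was 86.6% of 664 clusters, and in runs 1.1 and 1.2 it was 85.9% of 788. For the 385 clusters with a blastocyst read the base was the same in 121 (31.4%) and within 2 bp in 282 (73.2%), and for the kept clusters in 33.6% and 70.1% of 592.

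**Figure D4:**
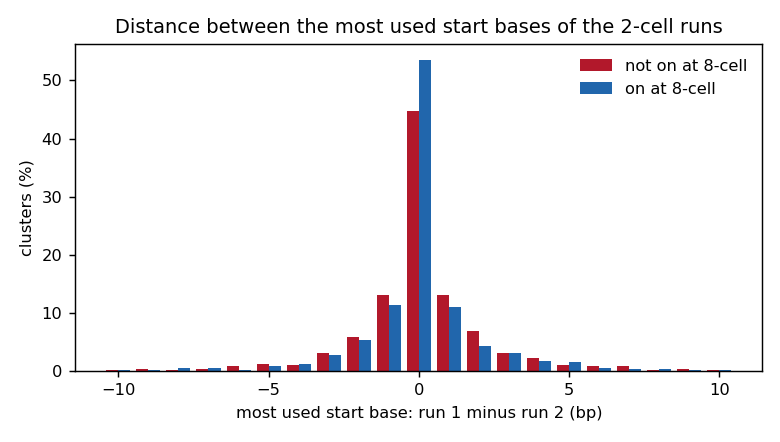
Distance in bp between the most used start base in 2-cell run 1 and in run 2 (run 1 minus run 2, in genome coordinates, shown from -10 to 10) as percent of the 1514 clusters and of the 1141 kept clusters. Both classes peak at 0, with 44.8% and 53.6%.

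The clusters were narrow. The median width over all runs was 4 bp (quartiles 2 and 6), 1414 of 1514 (93.4%) spanned at most 10 bp, and 161 (10.6%) were a single base. The widest spanned 108 bp. Kept clusters had a median of 6 bp and clusters on in oocyte and 2-cell of 20 bp, and widths were taken over all runs, in which the classes differ in read number by the rule, so they were not compared. The share of the most used base was taken from 2-cell reads alone. Over the 738 of the 1514 clusters with 10 or more such reads its median was 69.2% (interval 66.7% to 71.4%). With 10 to 19 of these reads the median was 67.5% (63.6% to 70.0%) in 460 of the 1514 clusters. It was 60.0% (57.9% to 63.6%) in 240 kept clusters, and the intervals meet. With 20 to 49 reads the median was 70.5% (65.5% to 75.0%) in 226 of the 1514 clusters and 59.2% (55.2% to 62.5%) in 367 kept clusters. With 50 or more reads the values were 74.2% (60.3% to 84.0%, 52 clusters) and 63.4% (60.0% to 65.7%, 366 clusters), with overlapping intervals. The intervals treat clusters as independent and were not made into a test.

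At the 8-cell stage the 1514 clusters were low rather than empty. These reads were used by the rule, and the values are given as a description. No read in any 8-cell run was found for 426 clusters (28.1%), 375 (24.8%) had reads but never 2 in a run, and 713 (47.1%) had 2 or more reads in exactly 1 run. That run was 1.1 for 103 clusters, 1.2 for 297 and 2 for 313. Together the clusters held 1.25% of reads in run 1.1 (interval 1.15% to 1.35%), 1.83% in run 1.2 (1.74% to 1.92%) and 0.312% in run 2 (0.302% to 0.322%). The mean of these, with equal weight for each run, is 0.219 of the mean 2-cell share, and with the reads of the runs pooled the ratio was 0.0860. When the clusters were chosen again without 8-cell run 1.1, 1.2 or 2, the ratio was 0.519, 0.366 or 0.377. Both remaining runs must then count for the stage to be on, so kept clusters that count in only 1 of them enter. The rise is therefore in part set by the rule and is not read as an effect of a run.

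The depth of 8-cell runs 1.1 and 1.2 was too low to show a fall for most of the clusters. At its own mean 2-cell share, the median cluster would have had 1.05 reads in run 1.1, 1.69 in run 1.2 and 23.7 in run 2. The 2-cell share of 167 clusters was above the limit that a count of 0 allows in run 1.1, that of 364 (24.0%) was above it in run 1.2, and that of all 1514 was above it in run 2. The value for run 2 was set by the rule, since 2 reads in each 2-cell run already give a mean share of 0.000894%. With every run thinned to 33473 reads, 565 clusters were on at the 2-cell stage and 232 of them met the rule (41.1%, against 54.1% with all reads), and 91 of the 232 overlapped one of the 1514.

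8-cell run 2, the deepest, was low in both the 1514 and the kept clusters. The read names of 2-cell run 2 hold the same identifier. Against that run, the share of 8-cell run 2 was 0.0682 of the 2-cell value in the 1514 clusters (0.312% after 4.58%). It was 0.0535 in the kept clusters (1.26% after 23.6%), but 0.770 in the 143 clusters on in oocyte and 2-cell (11.7% after 15.2%). The share of the 1514 clusters relative to the kept clusters was 0.227 and 0.194 in the 2-cell runs, 0.0356 and 0.0493 in 8-cell runs 1.1 and 1.2, and 0.247 in 8-cell run 2. The rule sorts the classes by their 8-cell reads, so these 8-cell ratios are a description and nothing is read from them. In run 2 the 3 clusters with the most reads held 37.8% of the reads of the 1514, and without them the share was 0.194%.

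The ratio of 8-cell to 2-cell share was also taken by 2-cell read number, as a description. The rule keeps at least 2 of the 8-cell runs of each cluster under 2 reads and leaves the other run free. A fall of the ratio as 2-cell reads rise is thus in part set by the rule. For the 52 clusters with 50 or more 2-cell reads, the summed 8-cell share was 0.0310, 0.0561 and 0.0378 of the 2-cell share in runs 1.1, 1.2 and 2. For the 776 clusters with 4 to 9 reads the ratios were 0.454, 0.590 and 0.0612. In run 2 the ratio did not fall steadily, at 0.102 with 10 to 19 reads and 0.0396 with 20 to 49. A stricter subset, set after the values were seen, had at least 10 reads in both 2-cell runs. It held 86 of the 1514 clusters (5.68%) and 443 of the kept clusters. Of the 86, 32 (37.2%) had no read in 8-cell runs 1.1 and 1.2, 7 had none in any 8-cell run, 38 had 2 or more in run 2, and 80 had none in the oocyte. Their summed share in the 8-cell runs was 0.0543, 0.138 and 0.0403 of the 2-cell share.

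Clusters on either side of the 8-cell threshold are given as a description, by definitions that are not alike. The 4 most used clusters just inside it, with 2 or more reads in exactly 1 8-cell run, were the first 4 by 2-cell share. All 4 had 0 reads in 8-cell runs 1.1 and 1.2, so a second run was not near the threshold. The last of them, chr2:143663944-143663946 on the minus strand, had 224 and 12 reads at the 2-cell stage, followed by 0, 0 and 2. The first 4 just outside had exactly 2 reads in their second-highest 8-cell run. At chr13:21914090-21914093 on the plus strand there were 83 and 574 reads at the 2-cell stage, then 0, 2 and 191, so that 2 reads in run 1.2 put it among the kept clusters. It also had 84 reads in oocyte run 2. The others, chr11:6772201-6772206 (plus), chr2:130149849-130149851 (minus) and chr4:101456683-101456696 (plus), had 0, 2 and 3 reads, 0, 9 and 2 reads, and 0, 2 and 7 reads in the 8-cell runs, after 13 and 116, 97 and 33, and 122 and 2 reads at the 2-cell stage. The last also had 84 reads in blastocyst run 2. In all, 713 clusters lay just inside and 298 just outside by these definitions. The inside definition sets no limit on the highest run and no lower limit on the second, so the counts were not compared.

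The rule did not ask whether a cluster was on in the blastocyst, but blastocyst starts were pooled with the others to form the clusters. Without blastocyst run 2 there were 1515 clusters, with a median width of 3 bp. Of the 1514 clusters, 8 were on in the blastocyst (0.528%, interval 0.228% to 1.04%), against 6.40% of all 2798 clusters on at the 2-cell stage and 0.233% of all 259863 clusters. The share on was 0.132% without blastocyst run 1.1 or 1.2 and 0.264% without run 2, and it was 1.32% and 1.55% with the clusters chosen again without 8-cell run 1.2 or 2. With a run left out, both remaining runs of its stage have to count. That by itself lowers the share on in the blastocyst, or widens the choice of clusters. Any blastocyst read was found for 385 (25.4%, 23.3% to 27.7%), against 39.3% of all clusters on at the 2-cell stage and 51.9% of the kept clusters (48.9% to 54.8%). Of the 143 clusters on in oocyte and 2-cell, 85.3% had one. These classes differ in read number, so the comparison was repeated within ranges of 2-cell reads. With 4 to 9 reads, 20.7% of the 1514 class (17.9% to 23.8%, 776 clusters) and 38.1% of the kept class (30.7% to 45.9%, 168 clusters) had a blastocyst read. With 10 to 19 reads these were 27.4% and 48.8%, with 20 to 49 reads 33.2% (27.1% to 39.7%) and 55.3% (50.1% to 60.5%), and with 50 or more 44.2% (30.5% to 58.7%) and 56.8% (51.6% to 62.0%). The 1514 class was below the kept class in all 4 ranges, and in the last the intervals overlapped. With 1 sample per stage this difference has no test over embryos.

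**Figure D5:**
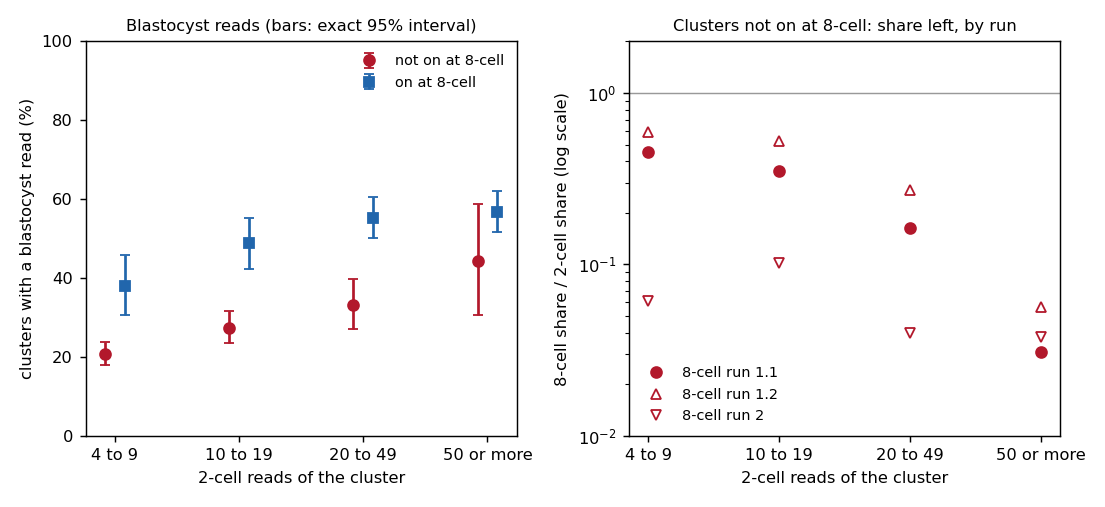
Left, percent of clusters with a blastocyst read by the number of 2-cell reads, for the 1514 clusters (not on at 8-cell) and the 1141 kept clusters (on at 8-cell), with exact 95% intervals. Right, summed 8-cell share over summed 2-cell share of the 1514 clusters by 8-cell run (log scale, line at 1). The left panel runs from 20.7% to 44.2% and from 38.1% to 56.8%. In the right panel the rule in part limits the 8-cell reads. There, clusters with 50 or more reads had ratios of 0.0310, 0.0561 and 0.0378 in runs 1.1, 1.2 and 2.

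Blastocyst run 2 gave most of these reads. It had a read in 345 of the 1514 clusters, against 38 and 39 in runs 1.1 and 1.2, and the clusters held 0.161%, 0.367% and 1.34% of reads in runs 1.1, 1.2 and 2. Over runs 1.1 and 1.2 alone, 66 of the 1514 (4.36%, 3.39% to 5.51%) and 17.3% of the kept clusters (15.1% to 19.6%) had a read. Placements with a score under 20 made up 97.3% of the reads of the 1514 clusters in run 2, 92.4% in run 1.1 and 6.50% in run 1.2, close to the 92.5%, 95.6% and 11.2% of all lines of these runs. With such lines left out, the rule gave 1322 clusters, of which 60 (4.54%, 3.48% to 5.80%) had a blastocyst read, against 22.2% (19.3% to 25.2%) of 803 kept clusters. The kept clusters held 1.60%, 2.53% and 20.8% of reads in runs 1.1, 1.2 and 2. Relative to the mean 2-cell share, the blastocyst share by run was 0.0313 to 0.259 in the 1514 clusters (mean 0.121) and 0.0655 to 0.853 in the kept clusters (mean 0.341), highest in run 2 in both. The single largest contributor to run 2 was chr6:105549122-105549127 on the minus strand, named after its values were seen. It had 154 of the 1279 reads there, none in the other blastocyst runs, 16 and 2 at the 2-cell stage and 26, 1 and 1 at the 8-cell stage.

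Of the 8 clusters on in the blastocyst, the 6 with the highest blastocyst share had 5 to 35 reads at the 2-cell stage. At chr10:107632454-107632459 on the plus strand there were 2 and 3 reads at the 2-cell stage, 4, 0 and 0 at the 8-cell stage, and 2, 28 and 0 in blastocyst runs 1.1, 1.2 and 2. The cluster chr18:72986321-72986327 (plus) followed 2 and 20 2-cell reads with 8, 16 and 0 blastocyst reads, and had also 8 in oocyte run 2. For chr7:78450515-78450526 (minus) the counts were 5 and 2, then 7, 11 and 0, and for chr12:106481848-106481855 (minus) 4 and 11, and 2, 10 and 0. In these 4 the blastocyst reads were in runs 1.1 and 1.2 and absent from run 2. The other 2 had reads in run 2: chr15:40922479-40922485 (minus) with 12 and 23, then 2, 0 and 9 reads, and chr9:22861275-22861287 (minus) with 9 and 2, then 0, 8 and 3. Oocyte reads were also found in the chr7 cluster, 1 and 2 in runs 1.1 and 2, and in the chr12 cluster, 4 in run 2. The clusters on chr10, chr15 and chr9 had none. In 8-cell runs 1.1, 1.2 and 2 the counts were 0, 2 and 0 on chr18, 1, 1 and 5 on chr7 and 0, 3 and 1 on chr12. They were 0, 1 and 1 on chr15 and 0, 0 and 6 on chr9.

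The oocyte reads of the 1514 clusters were few, and 1447 of them (95.6%) had none in the 3 oocyte runs. The rule used these reads, so the values are given as a description. The clusters held 0.00588% and 0.00763% of reads in oocyte runs 1.1 and 1.2, and 0.200% in run 2. In run 2 a single cluster, chr16:57391773-57391795 on the minus strand, held 569 of the 950 reads, with none in the other oocyte runs and 2 and 3 reads at the 2-cell stage. Without it the share of oocyte run 2 was 0.0804%. The kept clusters, by the rule not on in the oocyte either, held 0.0118%, 0.00538% and 0.131% of oocyte runs 1.1, 1.2 and 2. Because the rule asks for 2 runs, a cluster with many reads in 1 run of another stage can still be among the 1514. At the 8-cell stage the clearest case was chr4:105771461-105771464 (minus), with 608 reads in run 2, none in runs 1.1 and 1.2, and 5 and 10 at the 2-cell stage. In run 1.2 it was chr12:17588200-17588202 (plus), with 32 reads there, 1 and 0 in runs 1.1 and 2, and 4 and 10 at the 2-cell stage. These 3 clusters were named after their values were seen.

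Every autosome held some of the clusters, from 38 on chromosome 19 to 116 on chromosome 1. They made up 48.0% (chromosome 12, interval 39.0% to 57.1%) to 65.2% (chromosome 16, 55.8% to 73.9%) of the clusters on at the 2-cell stage of a chromosome, around 54.1% over all. Of the 19 autosomes only the interval of chromosome 16, with 75 of 115 clusters, left out that value. The 19 intervals were not corrected for their number, so chromosome 16 is not read as different. The plus strand held 749 (49.5%, 46.9% to 52.0%). Consecutive clusters on the same strand were a median of 2104 kb apart, and 792 of the 1514 (52.3%) were alone in their window of 1 Mb, whereas the others shared theirs with up to 4 more. Another of the 1514 lay within 10 kb on the same strand for 10 clusters (0.661%, 0.317% to 1.21%), and for kept clusters another of their own class did so for 1.58% (0.938% to 2.48%).

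The fullest 1 Mb window was on chromosome 10 from 125 Mb and held 5 of the clusters. On the minus strand chr10:125663611-125663618 had 64 and 18 reads in the 2-cell runs, and chr10:125663730-125663734, close by, had 7 and 2. The other 3, chr10:125102412-125102421 and chr10:125143384-125143386 on the minus strand and chr10:125292376-125292377 on the plus strand, had 4 to 7 reads in each 2-cell run. No 8-cell or blastocyst run had over 5 reads in any of the 5.

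A cluster on at the 2-cell stage lay within 1 kb on the opposite strand for 35 of the 1514 clusters (2.31%, 1.62% to 3.20%) and for 83 of the kept clusters (7.27%, 5.84% to 8.94%). The intervals did not overlap, and no test was made, since neighbouring clusters are not independent. The classes also differ in read number, with medians of 9 and 28 2-cell reads. This comparison was not repeated within ranges of reads, and the share over all 2798 clusters on at the 2-cell stage was not taken. The difference is therefore given as a description. Few of the 1514 had a nearby start on the same strand that was on at another stage. Within 1 kb there was a cluster on at the 8-cell stage for 3 of them (0.198%), one on in the blastocyst for 3 and one on in the oocyte for 13 (0.859%). The corresponding shares of kept clusters were 0.351%, 0.351% and 0.526%.

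The score that the files give each placement differed between runs and, in 1 run, between the classes. Its median among 2-cell reads of the 1514 clusters was 23 in run 1 and 32 in run 2, for the kept clusters 24 and 51, and over all lines 24 and 43. Lines that repeat an earlier line exactly, read name included, made up 3.82% of the 2-cell lines in the 1514 clusters and 1.18% in the kept clusters. With each distinct line counted once, 1440 of the 1514 still had 2 lines in both 2-cell runs and 74 did not. The part of the score and of repeated lines in the differences between the classes was not tested.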

How the data were processed

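Placements of 25-base nanoCAGE reads in repeats were taken from 11 read files of 4 samples. The submitters' processing notes name the build mm9 and the tool CASAVA, without its version or role. Not given in the sources used here are the aligner, its settings and how multiply placed reads were handled. The score that the authors deposited for each line, from 1 to 99, has no stated scale and was used only as an alternative filter. The deposited family counts hold no positions and were not used.

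The read start was the first base on the plus strand and the last on the minus strand, 1-based. Shares are percent of all lines of a run, and stage values average the runs equally. The region left out on chromosome 17 was 39980001 to 39990000. Runs held 33473 to 1375332 lines. The clusters and comparisons were chosen with earlier results of these data known. Named are the 12 clusters with the highest mean 2-cell share, the 6 highest in the blastocyst among those on there, 4 on each side of the 8-cell threshold and the fullest 1 Mb window. Clusters named for another reason are marked as such. The grouping was tested on simulated data with known clusters. Alternatives changed the joining distance, the read threshold, depth, score, repeated lines, regions, run weights and runs. Python 3.11.15, pandas 2.3.3, numpy 2.4.6 and scipy 1.17.1 were used.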

Additional observations from a re-analysis of the deposited data

Results flagged for a closer look

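Chromosome X, which the rule leaves out, held 94 clusters that met the same rule otherwise, of 182 on at the 2-cell stage (51.6%). They took 0.335% and 0.318% of reads in 2-cell runs 1 and 2, and 19 of the 94 had a blastocyst read. They drew attention because they lie outside the regions compared, with a signal above the limit that a count of 0 allows. No cluster on chromosomes Y and M met the rule.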

How the results depend on the processing

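Over 10 results and 21 settings, 138 of 185 alternative values stayed within the counting interval of the reported one, the SD of its runs or, for the number of clusters, 1.5 times, and 47 moved. This tally does not measure stability, because some values could hardly move. Without blastocyst run 1.1, which the rule uses only to join starts, the number of clusters stayed at 1514. Some ranges were also wide, for the share of blastocyst reads from -0.00576% to 1.25%. The top-base shares below are medians over clusters with 10 or more 2-cell reads, for which the main value was 69.2%. With a run counting from 1 read there were 3311 clusters, 55.2% without an 8-cell read, 1.54% on in the blastocyst, 17.7% with a blastocyst read, 1.93% with a neighbour of their class within 10 kb, a median width of 3 bp and a top-base share of 75.6%. From 5 reads these were 593 clusters, 8.60% without an 8-cell read, 35.6% with a blastocyst read, 5 bp and 63.6%. With all runs thinned to equal depth there were 232 clusters, with 4.18% of 2-cell reads, 22.8% without an 8-cell read, 3.88% on in the blastocyst, 0.00% with a neighbour and a top-base share of 65.0%. With a score of at least 20 the clusters held 6.15% of 2-cell reads, 0.00% were on in the blastocyst, 4.54% had a blastocyst read and the width was 3 bp. With distinct lines 25.6% had no 8-cell read, and within 20 kb 1.59% had a neighbour. Requiring 10 reads in both 2-cell runs, chosen after seeing the data, left 86 clusters with 1.29% of 2-cell reads, 8.14% without an 8-cell read, 3.49% on in the blastocyst, 33.7% with a blastocyst read, 0.00% with a neighbour and 5 bp. The cause of these shifts was not tested.

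Leaving out 1 oocyte, 8-cell or blastocyst run at a time gave 1514 to 2041 clusters, 5.16% to 8.92% of 2-cell reads, an 8-cell to 2-cell ratio of 0.217 to 0.519, 27.8% to 38.9% without an 8-cell read, 0.132% to 1.55% on in the blastocyst, 4.42% to 29.2% with a blastocyst read, 0.268% to 1.35% of blastocyst reads and a width of 3 to 4 bp. The value of 4.42% was found without blastocyst run 2. Both remaining runs of a stage had to count once a run was left out. The number of clusters, the 8-cell ratio and the share on in the blastocyst therefore also reflect a stricter threshold. With reads pooled over runs in place of equal weights the 8-cell to 2-cell ratio was 0.0860, within the SD of the runs, which is wide. A 2-cell run could not be left out, since the rule needs both. No paired analysis was possible because each stage is 1 sample.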
